A study of Mus musculus with 6 samples.

Results

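The mouse genes Rhobtb1, Rhobtb2 and Rhobtb3 encode the 3 RhoBTB proteins, and Cul3 encodes cullin 3, the scaffold to which these proteins bind. The 4 genes were found by symbol among 48005 gene identifiers, and all 4 were among the 13066 genes with enough counts to be tested. Rhobtb1 was chosen by its p value, the smallest of all tested genes in the comparison of knock-in with wild-type hearts. Its values in that comparison are therefore a description with no test, and the others were looked at as its relatives and its partner.

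The libraries came from whole hearts of 6 C57BL/6 mice. In 3 conditional knock-in hearts the PPXY motifs of Txnip, an alpha-arrestin that limits glucose uptake, were changed to AAXA, and 3 wild-type hearts were labelled Txnip flox. All 6 carried MerCreMer, a form of Cre that works only in the presence of tamoxifen, and were treated with 4-hydroxytamoxifen. The labels give neither the promoter of the Cre nor the age of the mice. The wild-type hearts were also used as controls in another series, so that genotype and batch cannot be told apart. The labels do not say that hearts of a group were collected separately, and p values measure the spread between these samples, which may be technical.

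RhoBTB proteins carry a pair of BTB domains, folds that bind cullin 3. A cullin 3 ligase is built from the cullin, the RING protein Rbx1 and a BTB protein that brings in the substrate, and it is switched on when Nedd8 is attached to the cullin. In blood vessels, RhoBTB1 is known as the adaptor through which cullin 3 removes phosphodiesterase 5, the enzyme that breaks down cGMP in smooth muscle. RhoBTB2, also called DBC2, is itself degraded through cullin 3, and RhoBTB3 hydrolyses ATP and acts at the Golgi with Rab9.

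Rhobtb1 has several annotated starts, and counts at its first exons bear on which of them these hearts used. Of these starts, 3 have a RefSeq entry (GRCm38.p6), and their upstream sequences are printed here because the counts below fall unevenly over them. Each sequence runs from 250 bases before a start and ends before the start itself or, where the exon of another start begins sooner, before that exon. Capitals mark an E-box (CACGTG, bound by basic helix-loop-helix factors) in the sequence before 69212657, and a match to the MEF2 motif in the sequence before 69213194.
Rhobtb1 before 69208552 (chr10:69208302-69208551, forward strand): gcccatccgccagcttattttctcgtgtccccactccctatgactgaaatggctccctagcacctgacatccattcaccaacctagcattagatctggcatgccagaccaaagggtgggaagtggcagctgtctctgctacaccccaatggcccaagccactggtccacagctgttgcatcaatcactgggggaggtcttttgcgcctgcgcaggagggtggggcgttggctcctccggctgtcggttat
Rhobtb1 before 69212657 (chr10:69212407-69212633, forward strand): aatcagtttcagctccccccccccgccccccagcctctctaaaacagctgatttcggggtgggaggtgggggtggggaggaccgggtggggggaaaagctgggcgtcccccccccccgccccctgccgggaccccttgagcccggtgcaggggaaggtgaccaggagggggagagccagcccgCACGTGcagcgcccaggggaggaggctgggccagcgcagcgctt
Rhobtb1 before 69213194 (chr10:69212944-69213083, forward strand): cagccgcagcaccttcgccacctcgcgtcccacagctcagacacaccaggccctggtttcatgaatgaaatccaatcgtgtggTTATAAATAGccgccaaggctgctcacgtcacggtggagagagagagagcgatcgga
No count fell in the exon that begins at 69208552 in any of the 6 libraries. The 19-base bin at 69212657 held 1 count, in knock-in heart 1, and the 59 bases after it held 4 counts over all libraries. The 182-base exon 1 at 69213194 to 69213375 held 12, 8 and 7 counts in the knock-in hearts and 1, 6 and 2 in the wild-type hearts. A further annotated start lies at 69219385, and the 62 bases from there held 30, 44 and 45 counts in the knock-in hearts, against 9, 13 and 8 in the wild-type hearts. Of the first exons of these 4 starts, those at 69213194 and 69219385 thus held nearly all counts, and at both every knock-in heart held more than every wild-type heart. Searched on both strands over 250 bases, CACGTG occurred in 6.02% of 32851 mouse promoters and the MEF2 motif in 2.92%. TATAAA, which lies within the MEF2 match here, occurred in 12.4%. In all, 8 motifs were searched, and some matches are not marked. GC boxes (GGGCGG, in 32.7% of promoters) had 2 matches before 69212657 and 2 in the 250 bases before 69213194. The latter 2 lie after the end of the printed sequence, which holds no GC box. CGTCA, a short form of the cAMP response element (in 17.8%), had 1 match before 69213194. These matches describe the letters and are not measurements of binding.

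Txnip (ENSMUSG00000038393), the targeted gene, stood at 363, 751 and 670.1 CPM (counts relative to the scaled total of each library) in the knock-in hearts, against 887, 939 and 886 CPM in wild-type hearts. Its mean level was 595 ± 205 CPM in knock-in and 904 ± 30.4 CPM in wild-type hearts (SD, n = 3 each, edgeR adjusted p = 0.0698). The log2 difference was -0.60 ± 0.20 (SE). Library totals ran from 31989883 to 34016586 counts in knock-in and from 30329004 to 30625093 in wild-type hearts. To follow coverage, the exonic length of a gene was cut into 3 equal parts, called the 5′, middle and 3′ parts. Over 1796 long genes, log2 of the counts in the 3′ part over those in the 5′ part had a median of -0.24 to -0.08 in the knock-in hearts and 0.30 to 0.70 in the wild-type hearts. Coverage along transcripts thus differed between the groups, and many values below are also given for the 3′ part alone. Fits on part of the length were filtered and scaled on those counts alone. Log2 ratios by part keep the scaling of whole genes, so a ratio and a fit can differ for the same part. Txnip itself differed in opposite directions along its length: with counts of the 3′ part only, its log2 difference was 4.53 (edgeR adjusted p = 0.00148), and with the last 1000 exonic bases 4.58 (edgeR adjusted p = 0.00571). With the 5′ and middle parts it was -0.96 (edgeR adjusted p = 0.0106).

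Rhobtb1 (ENSMUSG00000019944) spans 69151434 to 69291791 of chromosome 10 (GRCm38, forward strand), with 6075 exonic bases. It held 5447, 6416 and 6672 counts in the knock-in hearts, against 1870, 2556 and 1979 in the wild-type hearts. As levels these were 178, 195 and 196 CPM in knock-in and 60.0, 81.8 and 63.6 CPM in wild-type hearts. The lowest knock-in heart thus lay well above the highest wild-type heart. The means were 189.7 ± 10.3 CPM in knock-in and 68.5 ± 11.7 CPM in wild-type hearts (SD, n = 3 each), a log2 difference of 1.47 ± 0.13 (SE), or 2.77-fold, with a 95% interval of 1.19 to 1.75. The interval makes no allowance for the choice of Rhobtb1 by its p value in this same fit. By log2 difference, highest first, Rhobtb1 ranked 27 of the 13066 genes. The gene with the next smallest p value was Zbtb16, a BTB-domain zinc finger protein, with a log2 difference of 1.25 and means of 64.9 CPM in knock-in and 27.3 CPM in wild-type hearts.

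**Figure D1:**
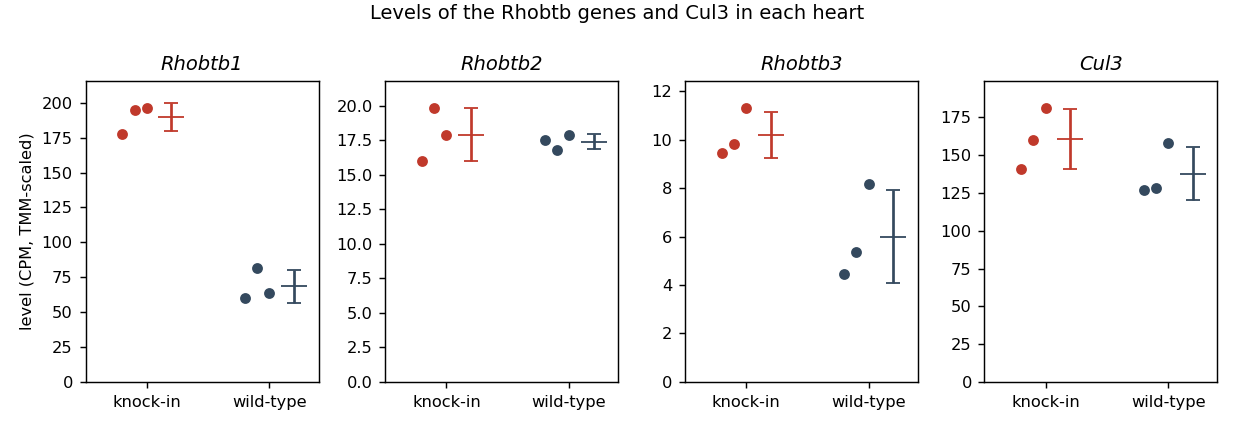
Levels of Rhobtb1, Rhobtb2, Rhobtb3 and Cul3 in CPM on TMM-scaled library sizes, with an axis for each gene that starts at 0; points are hearts and bars the mean ± SD of 3 hearts. Knock-in hearts lie at 178 to 196 CPM for Rhobtb1, against 60.0 to 81.8 CPM in wild-type hearts, while the groups overlap for Rhobtb2 and Cul3.

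Rhobtb2 (ENSMUSG00000022075), on chromosome 14 at 69784990 to 69805530 (reverse strand), had 16.0, 19.8 and 17.9 CPM in knock-in hearts and 17.5, 16.8 and 17.9 CPM in wild-type hearts. The ranges of the groups overlapped. The means were 17.9 ± 1.87 CPM in knock-in and 17.4 ± 0.529 CPM in wild-type hearts (SD, n = 3 each, edgeR adjusted p = 0.874). The log2 difference was 0.04 ± 0.14 (SE), with a 95% interval of -0.25 to 0.34, and its sign turned under other scalings. With counts of the 3′ part only it was 0.16 (edgeR adjusted p = 0.691).

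Rhobtb3 (ENSMUSG00000021589), on chromosome 13 at 75869537 to 75943925 (reverse strand), rose to 9.47, 9.83 and 11.3 CPM in knock-in hearts, against 4.46, 5.37 and 8.17 CPM in wild-type hearts. The groups did not overlap, with wild-type heart 3 nearest to the knock-in hearts. The means were 10.2 ± 0.95 CPM in knock-in and 6.00 ± 1.93 CPM in wild-type hearts (SD, n = 3 each, edgeR adjusted p = 0.0417). The log2 difference was 0.76 ± 0.22 (SE), or 1.70-fold, with a 95% interval of 0.29 to 1.23. Of all tested genes, 10.8% passed this threshold (6.74% higher, 4.09% lower), and 30.7% did not overlap between the groups in either direction. The call did not hold without knock-in heart 2 (edgeR adjusted p = 0.125), knock-in heart 3 (0.13), wild-type heart 1 (0.185) or wild-type heart 2 (0.172), nor with upper-quartile scaling (0.0559) or scaling by total counts (0.0624). With counts of the 3′ part of the exonic length only, the log2 difference was 0.20 (edgeR adjusted p = 0.709).

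Cul3 (ENSMUSG00000004364), on chromosome 1 at 80264923 to 80340480 (reverse strand), stood at 141, 160 and 181 CPM in knock-in hearts, against 127, 128 and 158 CPM in wild-type hearts. Wild-type heart 3 lay among the knock-in hearts. The means were 161 ± 19.8 CPM in knock-in and 138 ± 17.6 CPM in wild-type hearts (SD, n = 3 each, edgeR adjusted p = 0.284). The log2 difference of 0.22 ± 0.13 (SE) had a 95% interval of -0.05 to 0.50. With counts of the 3′ part of the exonic length only, it was -0.12 (edgeR adjusted p = 0.777).

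Per length, Cul3 was the most abundant of the 4 genes in both groups, but Rhobtb1 had about the same level in the knock-in hearts. In those hearts Cul3 stood at 33.0 ± 4.05 CPM per kb of exonic length and Rhobtb1 at 31.2 ± 1.70 CPM per kb (SD, n = 3), and the hearts overlapped, with 29.0 to 37.1 for Cul3 and 29.3 to 32.3 for Rhobtb1. In the wild-type hearts Cul3 stood at 28.3 ± 3.62 CPM per kb and Rhobtb1 at 11.3 ± 1.92 CPM per kb (SD, n = 3), and they did not overlap. Rhobtb2 followed at 3.43 ± 0.359 CPM per kb in knock-in and 3.33 ± 0.101 CPM per kb in wild-type hearts. Rhobtb3 was lowest, at 1.79 ± 0.167 CPM per kb in knock-in and 1.06 ± 0.34 CPM per kb in wild-type hearts. A read that spans several exon bins was counted in each, so genes with many short exons gain in this order. The last 1900 of the 4873 exonic bases of Cul3 held 5.14 to 7.73 CPM in knock-in and 7.0 to 8.04 CPM in wild-type hearts, so the level per kb over its whole length is lower than over its coding exons. The exonic length of Rhobtb1 likewise includes bins with few or no counts. Among them is a 670-base bin at 69272858 to 69273527 with 9 counts over all libraries. The order of Cul3 and Rhobtb1 in knock-in hearts thus depends on the bases counted in each length.

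Within the family, Rhobtb1 made up most of the counts per exonic base in every heart. Its share was 86.1%, 85.3% and 85.6% in the knock-in hearts, against 70.5%, 76.3% and 68.3% in the wild-type hearts, with means of 85.7% ± 0.366 and 71.7% ± 4.16 (SD, n = 3 each). The share of Rhobtb2 averaged 9.40% in knock-in and 21.5% in wild-type hearts. That of Rhobtb3 averaged 4.91% in knock-in and 6.78% in wild-type hearts. These shares restate the counts by which Rhobtb1 was chosen and are a description. The lower shares of Rhobtb2 and Rhobtb3 in knock-in hearts stand beside levels of 17.9 CPM in knock-in and 17.4 CPM in wild-type hearts for Rhobtb2, and of 10.2 CPM in knock-in and 6.00 CPM in wild-type hearts for Rhobtb3. With counts of the 3′ part of the exonic length only, its share was 89.1% in knock-in and 78.5% in wild-type hearts.

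The higher level of Rhobtb1 in knock-in hearts held in every bin with enough counts. Of its 34 exon bins, 16 had at least 50 bases and a mean of at least 10 counts. In all 16 every knock-in heart exceeded every wild-type heart, in a table where 24.2% of 111455 such bins did so. Rhobtb1 was chosen by this contrast and a read can count in several bins, so the count of 16 is a description and no further support. Exon 2, with 4, 10 and 3 counts in the wild-type hearts, reached the mean of 10 only through the knock-in hearts. The ratio of knock-in to wild-type means had a median of 3.21 over the 16 bins. It was highest, at 4.19, in the 93-base bin at 69219447 to 69219539, an exon that the reference transcript lacks. In that bin the knock-in hearts held 2.94, 3.86 and 3.68 CPM, against 0.738, 1.09 and 0.675 CPM in wild-type hearts. Exon 3, at 69248771 to 69248972, which is partly coding, had a ratio of 4.17.

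The largest coding bin, 664 bases of exon 6 at 69270210 to 69270873, held 22.5, 22.7 and 22.7 CPM in knock-in hearts, against 4.59, 8.80 and 6.62 CPM in wild-type hearts. Exon numbers are those of the reference transcript of each gene. The knock-in hearts were nearly equal there, and the wild-type hearts spread more widely. From exon 7 to exon 10 the ratio fell from 3.14 to 2.64. The 1782-base bin of the 3′ untranslated region in exon 11, at 69289999 to 69291780, had the lowest ratio, 2.08, with 40.9, 42.0 and 52.2 CPM in knock-in hearts and 21.3, 24.5 and 19.1 CPM in wild-type hearts. Of the 18 other bins, 8 were shorter than 50 bases and 10 held at most 36 counts over all libraries.

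**Figure D2:**
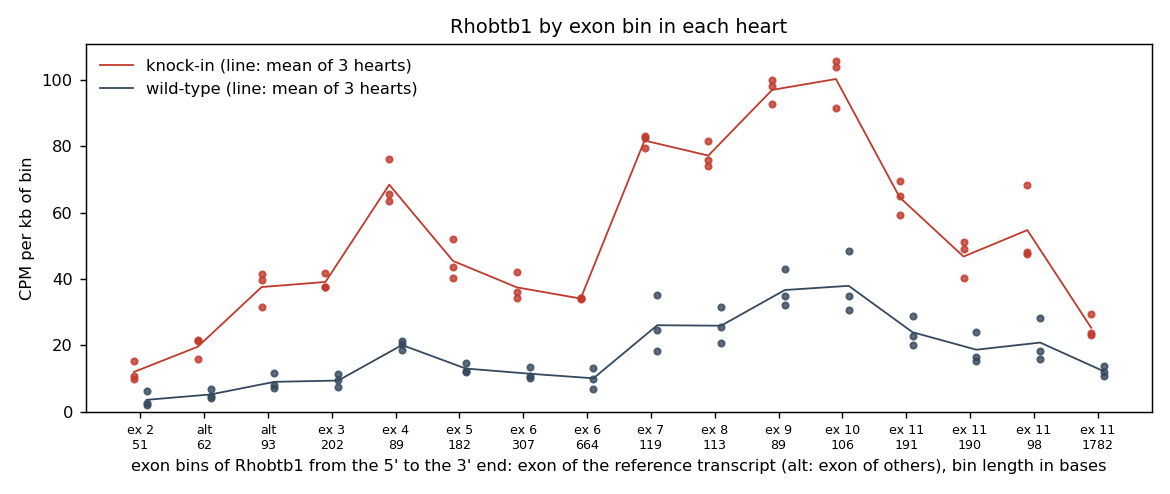
Counts of Rhobtb1 in its 16 described exon bins, in CPM per kb of bin, from the 5′ to the 3′ end; points are hearts and lines the means of the 3 knock-in and the 3 wild-type hearts. Every knock-in point lies above every wild-type point of the same bin, with ratios of the means between 2.08 and 4.19.

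Other long genes also had a lower ratio towards the 3′ end. Over the 1796 long genes, log2 of knock-in over wild-type means had a median of 0.44 in the 5′ part, 0.24 in the middle part and -0.07 in the 3′ part. For Rhobtb1 it was 1.81, 1.55 and 1.11 in the same order. The ratio of Rhobtb1 lay above the median of long genes in each part, which its choice by this contrast made likely in advance. Its 3′ to 5′ log2 ratio differed between the groups by -0.69, against -0.65 for the long genes. In a fit on counts of the 3′ part only, scaled on those counts, the log2 difference of Rhobtb1 was 1.31. On the 5′ and middle parts together it was 1.55. The part of the coverage difference in the level of Rhobtb1 was not tested.

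Among the described bins of Rhobtb3 the ratio was lowest in those of the last exon. The log2 ratio of Rhobtb3 was 1.12 in the 5′, 1.12 in the middle and 0.02 in the 3′ part. Of its 16 bins 8 were described, and in 6 of them every knock-in heart was higher, among them exon 6 (75910630 to 75910995) with 0.881, 1.22 and 1.06 CPM in knock-in hearts and 0.353, 0.320 and 0.514 CPM in wild-type hearts. Its 2476-base bin of the 3′ untranslated region, at 75869537 to 75872012, held 2.71, 2.62 and 4.06 CPM in knock-in hearts and 2.44, 2.85 and 3.99 CPM in wild-type hearts, a ratio of 1.01. That bin held more counts than any other bin of the gene. The highest ratios of described bins were those of exons 11 (2.99) and 10 (2.91), and 2.18, 2.29 and 2.21 in exons 3, 4 and 5. In the wild-type hearts exon 11 held 3, 7 and 5 counts, exon 10 held 5, 7 and 7, and exon 3 held 6, 5 and 17. These bins are among the 6, and reached the mean of 10 counts only through the knock-in hearts. Over all tested genes, 24.2% of described bins were higher in every knock-in heart.

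For Cul3 the log2 ratio was 0.52 in the 5′, 0.02 in the middle and -0.30 in the 3′ part. In 6 of its 20 described bins, all between exon 1 and exon 6, every knock-in heart was higher, a share close to the 24.2% of all such bins. Exon 3 (80304080 to 80304193) had the highest ratio, 1.77, with 4.64, 5.48 and 7.38 CPM in knock-in hearts and 2.66, 3.04 and 4.18 CPM in wild-type hearts. The 1900-base end of its 3′ untranslated region (80264923 to 80266822) had the lowest, 0.807. For Rhobtb2 the log2 ratio was 0.25, -0.19 and -0.04 from the 5′ to the 3′ part. In 1 of its 10 bins, exon 3, every knock-in heart was higher. The fits on the 3′ part, scaled on its own counts, gave -0.12 for Cul3 and 0.16 for Rhobtb2.

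**Figure D3:**
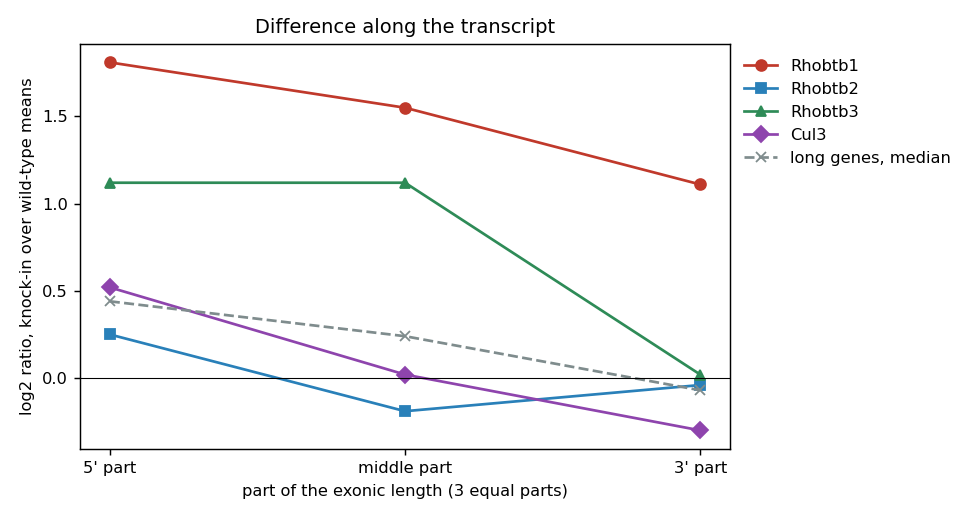
Log2 ratio of knock-in to wild-type mean CPM in the 5′, middle and 3′ part of the exonic length, for the 4 genes and as the median of 1796 long genes (dashed). Rhobtb1, chosen by this contrast, runs from 1.81 to 1.11, above the median of long genes in each part, whereas Rhobtb3 and Cul3 end at 0.02 and -0.30.

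The parts with which these proteins work were described from 6 lists that hold 111 tested genes, of which 15 (13.5%) were higher in the knock-in hearts and none lower, against 6.74% and 4.09% of all tested genes. Beside the 0 lower calls, edgeR gave 4 BTB adaptors and 3 genes of the cGMP list that were lower at an unadjusted p under 0.05, while DESeq2 called 1 gene of the lists lower and limma-voom 0. The 15 calls turn on single hearts: 18 were made without knock-in heart 1, 1 without knock-in heart 2, 4 without knock-in heart 3, 2 without wild-type heart 1, 1 without wild-type heart 2 and 27 without wild-type heart 3. With upper-quartile scaling or total counts 9 calls were made, all higher, while over all genes 594 were higher and 734 lower with the first and 552 higher and 700 lower with the second. Klhl38 alone passed in all 6 of these fits and under all 19 alternatives run. With counts of the 3′ part only, 3 of the 15 passed (Klhl38, Klhl13 and Nfe2l2) and 3 had no value.

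In the cullin 3 ligase core, which holds the cullin, Rbx1, the Nedd8 enzymes, the exchange factors and the COP9 signalosome, 2 of 23 tested genes rose, with a median log2 difference of 0.00, as over all genes. Cand2, a cullin exchange factor found mainly in muscle, rose to 108, 112 and 93.6 CPM in knock-in hearts, against 69.4, 72.0 and 77.9 CPM in wild-type hearts (edgeR adjusted p = 0.0165). Its log2 difference was 0.51, and 0.25 with counts of the 3′ part only, where it did not pass (edgeR adjusted p = 0.24). Dcun1d1, which helps to attach Nedd8 to cullins, had a log2 difference of 0.59 ± 0.17 (SE, edgeR adjusted p = 0.0431), and 0.10 with counts of the 3′ part only. Among the 7 other cullins 1 rose, Cul7, the cullin mutated in the growth disorder 3-M syndrome, by 0.42 ± 0.12 on the log2 scale (SE, edgeR adjusted p = 0.0447), and with the 3′ part only it did not pass (0.42, edgeR adjusted p = 0.0821).

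Of the other BTB adaptors of cullin 3, 7 of 44 tested genes (15.9%) rose and none fell, with a median log2 difference of 0.13. The shares over all tested genes were 6.74% higher and 4.09% lower. Klhl38, a kelch-like protein, rose to 30.7, 43.7 and 32.8 CPM in knock-in hearts, against 15.2, 19.4 and 16.7 CPM in wild-type hearts. Its log2 difference was 1.06 ± 0.16 (SE, edgeR adjusted p = 0.00525), and 1.10 with counts of the 3′ part only. Klhl24, which controls the turnover of intermediate filaments, rose to 112, 138 and 157 CPM in knock-in hearts, against 59.6, 78.6 and 104 CPM in wild-type hearts (edgeR adjusted p = 0.0243). Klhl24 had no value with the 3′ part only, and passed in 2 of the 6 fits with a heart left out. Klhl41, a sarcomere protein mutated in nemaline myopathy, rose by 0.44 ± 0.11 on the log2 scale (SE, edgeR adjusted p = 0.031), and with the 3′ part only it did not pass (0.37, edgeR adjusted p = 0.113).

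The other adaptors past the threshold were Klhl13, which acts in cell division, Klhl23, Btbd9 and Spopl, a relative of Spop, with log2 differences of 0.73, 0.56, 0.70 and 0.56. With the 3′ part only, Klhl13 was at 0.79 and passed, Klhl23 at 0.48 and Spopl at 0.57 did not (edgeR adjusted p = 0.0606 and 0.166), and Btbd9 had no value. The 2 adaptors with the highest levels did not pass in edgeR. Ivns1abp stood at 1015 ± 68.8 CPM in knock-in and 1039 ± 123 CPM in wild-type hearts, and Spop at 216 ± 6.59 CPM in knock-in and 167 ± 21.1 CPM in wild-type hearts (SD, n = 3 each, edgeR adjusted p = 0.876 and 0.0526). Spop passed in DESeq2 (adjusted p = 0.0333) and limma-voom (adjusted p = 0.046), and in edgeR without wild-type heart 3 (adjusted p = 0.0139), without the filter (0.0346) and with length and GC offsets (0.0202). Keap1, the adaptor that holds Nrf2 low, stood at 48.5 ± 2.56 CPM in knock-in and 50.7 ± 0.709 CPM in wild-type hearts (SD, n = 3 each, edgeR adjusted p = 0.74).

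Among genes of known cullin 3 substrates, 4 of 9 tested (44.4%) rose and none fell, with a median log2 difference of 0.25. Of all tested genes 6.74% were called higher and 4.09% lower. The substrate calls turned on single hearts: 0 were made without knock-in heart 2, wild-type heart 1 or wild-type heart 2, and 1 without knock-in heart 3. With the 5′ and middle parts only, 3 were higher and 1 lower. Wnk1, a kinase that controls salt transport, rose to 507, 619 and 645 CPM in knock-in hearts, against 307, 340.1 and 484 CPM in wild-type hearts (edgeR adjusted p = 0.0251). Nfe2l2, which encodes Nrf2, rose to 44.1, 49.3 and 54.5 CPM in knock-in hearts, against 31.5, 38.2 and 33.3 CPM in wild-type hearts (edgeR adjusted p = 0.0248). Dapk1, a death-associated kinase, and the Polycomb gene Bmi1 rose by 0.64 and 0.57 on the log2 scale (edgeR adjusted p = 0.00992 and 0.041). With counts of the 3′ part only, the differences of Wnk1, Dapk1 and Bmi1 were 0.33, 0.24 and -0.10, and none of the 3 passed (edgeR adjusted p = 0.16, 0.401 and 0.902). These are transcript levels and say nothing of the amount of the proteins.

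Pde5a, the transcript of the enzyme that RhoBTB1 is known to remove, was scarce, at 1.66, 1.89 and 2.35 CPM in knock-in hearts and 1.44, 1.38 and 2.15 CPM in wild-type hearts. The groups overlapped, and the log2 difference was 0.25 ± 0.29 (SE, edgeR adjusted p = 0.611). Of the 14 tested genes of the cGMP pathway 1 rose and none fell, with a median log2 difference of 0.16. The one was Pde3a, a phosphodiesterase of cAMP that cGMP inhibits, with 57.5, 67.4 and 82.6 CPM in knock-in hearts and 26.2, 36.5 and 44.8 CPM in wild-type hearts (edgeR adjusted p = 0.0104). Pde3a had no value with the 3′ part only, and passed in 4 of the 6 fits with a heart left out. Prkg1, the kinase that cGMP switches on, stood at 8.72 ± 1.80 CPM in knock-in and 5.0 ± 1.86 CPM in wild-type hearts (SD, n = 3 each, edgeR adjusted p = 0.058). It passed in DESeq2 (adjusted p = 0.0203), limma-voom (adjusted p = 0.0454) and edgeR on the 3′ part only (adjusted p = 0.0261).

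**Figure D4:**
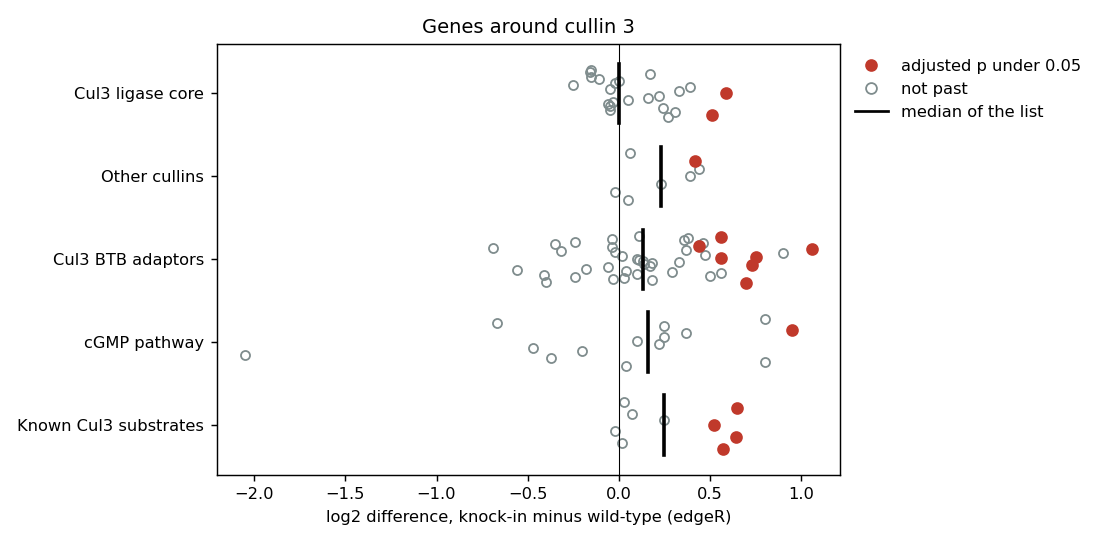
Log2 differences, knock-in minus wild-type, of the tested genes in 5 lists around cullin 3; filled points passed an edgeR adjusted p of 0.05 and black lines are medians. All 15 filled points lie to the right of 0, the farthest being Klhl38 at 1.06.

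The genes whose profile over the 6 hearts was most like that of Rhobtb1 were found from log2 CPM centred on the mean of the hearts, as the root mean square difference from Rhobtb1. The nearest was Cenpf, a kinetochore protein, with a difference of 0.09. It stood at 13.0, 16.6 and 16.8 CPM in knock-in hearts and at 5.20, 6.53 and 5.50 CPM in wild-type hearts. It shares with Rhobtb1 the lowest knock-in heart, number 1, and the highest wild-type heart, number 2.

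Next came Adam11 (0.173), a member of the ADAM family, Cacna1h (0.175), a T-type calcium channel subunit, Zbtb16 (0.188) and Hdac4 (0.19), a class IIa histone deacetylase. Hdac4 stood at 24.1, 32.3 and 33.5 CPM in knock-in hearts and at 7.80, 11.1 and 11.7 CPM in wild-type hearts. Among the relatives, Rhobtb3 was nearest to Rhobtb1 (0.454), followed by Cul3 (0.663) and Rhobtb2 (0.741). Since Rhobtb1 was chosen for its difference between the groups, so in effect were the genes most like it, and no test is given for them.

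**Figure D5:**
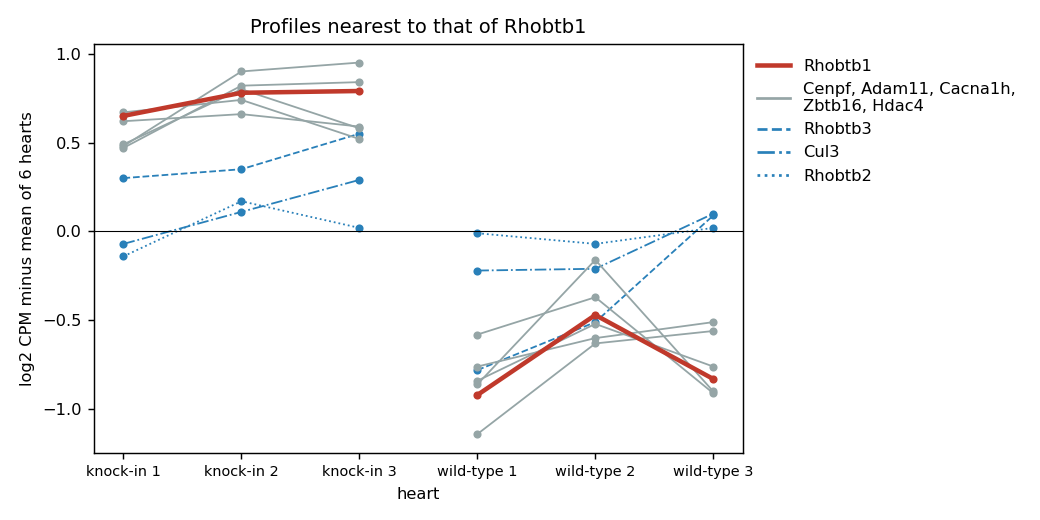
Log2 CPM in each heart minus the mean of the 6 hearts, knock-in hearts left and wild-type hearts right, for Rhobtb1, the 5 ranked genes nearest to it and its relatives. Rhobtb1 lies between 0.65 and 0.79 in the knock-in hearts and between -0.92 and -0.47 in the wild-type hearts, and Rhobtb2 stays between -0.14 and 0.17.

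The hearts were labelled by tissue only, and markers of the cell types a heart holds were summed beside these results. For scale, 6.74% of all tested genes were called higher and 4.09% lower. The 7 cardiomyocyte markers with an identifier of their own summed to 91635 to 97629 CPM in knock-in and 85574 to 89909.9 CPM in wild-type hearts, and none of them passed. Smooth muscle markers, of the cell type in which the action of RhoBTB1 on phosphodiesterase 5 is best known, summed to 169 to 261 CPM in knock-in and 332 to 361 CPM in wild-type hearts, with 3 of 6 lower, 1 higher and none at 0. Pericyte markers summed to 565 to 844 CPM in knock-in and 458 to 529 CPM in wild-type hearts, with 1 of 5 higher and none at 0. Their median log2 difference was -0.05, so the higher sum was not shared by the median marker. Sums of endothelial and fibroblast markers overlapped between the groups, with 2 of 7 endothelial (median log2 difference -0.43) and 1 of 6 fibroblast markers lower, and those of macrophages were 169.8 to 181 CPM in knock-in and 209 to 234 CPM in wild-type hearts, with 1 of 6 lower. Platelet markers summed to 8.56 to 11.3 CPM in knock-in and 17.4 to 22.0 CPM in wild-type hearts, with 3 of 4 lower. Sums of red cell markers (1 of 3 higher) and adipocyte markers (1 of 4 tested, not past) overlapped. In bulk tissue, fewer cells of a type and less RNA per cell cannot be told apart, and the part of these differences in the level of Rhobtb1 was not tested.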

How the data were processed

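RNA was sequenced from hearts of 3 knock-in and 3 wild-type mice. The deposited table holds raw counts of reads per exon bin, 425461 bins in all, as whole numbers without normalization. Per the submitters' processing notes the tools were STAR, featureCounts, Subread 1.5.2 and DESeq2 on GRCm38.p6, with settings not given in the sources used here. Every column of sample values was used.

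Bins were summed per gene identifier. Of 48005 identifiers, 1194 join overlapping genes, and Kctd13, Pde2a and Tnni3 were counted only in such a joined one. Names and exons came from GENCODE vM21. A read that spans bins was counted in each, and whether reads were counted by strand is not stated. The reads carry no molecular identifiers, so copies made by PCR count as separate reads.

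Genes were filtered with filterByExpr, scaled by TMM and compared over 13066 genes by the quasi-likelihood test of edgeR 4.0.16 (R 4.3.3, robust). P values were adjusted by Benjamini-Hochberg, with 0.05 as threshold. Each SE is the log2 difference over the square root of F, and intervals use the degrees of freedom of the fit. CPM uses TMM-scaled library sizes, and centred log2 CPM a prior count of 2. Long genes had at least 4000 exonic bases, 10 bins and 6000 counts, and 10 counts were added to each part. Alternatives were other scalings, DESeq2 1.42.0, limma-voom (limma 3.58.1), no filter, no robust moderation, subsets of bins, offsets for length and GC content (5 degrees of freedom each, GC content known for 99.9% of tested genes), the mitochondrial genome left out and each heart left out. The steps were tested on simulated data.

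The members and lists were chosen with earlier results of these data known, and 1 of the 6 lists is not reported here. Genes named were the members, Txnip, Pde5a, list members past the threshold, the list members with the highest levels (given in part) and the 5 profiles nearest to Rhobtb1 with a mean of at least 1 CPM. Zbtb16 (as the next smallest p) and Prkg1 were named after their values were seen.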

Additional observations from a re-analysis of the deposited data

How the results depend on the processing

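Rhobtb1 stayed higher in knock-in hearts under all 19 alternatives, with log2 differences of 1.20 with the highest bin of each gene and 1.30 to 1.60 otherwise (1.35 to 1.60 with a heart left out). The median log2 ratio of its bins was 1.5 to 1.82 with a heart left out. Its share of family counts was 84.7% in knock-in hearts with bins of at least 50 bases only, and with the 3′ part only 89.1% in knock-in and 78.5% in wild-type hearts. The log2 difference of Rhobtb3 was 0.69 with upper-quartile scaling, 0.70 with total counts, 0.15 with the highest bin, 0.20 with the 3′ part and 0.56 to 1.05 with a heart left out. That of Rhobtb2 was -0.03 with upper-quartile scaling, -0.02 with total counts, -0.03 with the 5′ and middle parts and -0.03 to 0.10 with a heart left out (-0.03 without knock-in heart 2). That of Cul3 was -0.08 with the last 1000 exonic bases and -0.12 with the 3′ part.

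Over all genes, 1415 passed, against 612 with the highest bin, 277 with the last 1000 exonic bases (8287 genes tested), 393 with the 3′ part (9814 genes tested) and 164 (without knock-in heart 2) to 2461 (without wild-type heart 3) with a heart left out. Of these calls 62.3% were higher, against 44.7% with upper-quartile scaling, 44.1% with total counts and 46.9% with the last 1000 bases. List calls numbered 9 with either of these scalings, 8 with the highest bin, 5 with the last 1000 bases, 4 with the 3′ part and 1 to 27 with a heart left out. Signs turned with the last 1000 bases for Txnip (4.58, past the threshold), Dcun1d1 (-0.22), Keap1 (0.03), Wnk1 (-0.18), Bmi1 (-0.06) and Dapk1 (-0.04), and with the 3′ part for Txnip (4.53, past the threshold), Keap1 (0.09) and Bmi1 (-0.10). Keap1 was 0.04 with length and GC offsets and Ivns1abp 0.02 without wild-type heart 3 (-0.16 to 0.02 with a heart left out). The causes were not tested.

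The 3 parts were chosen after seeing the data, since the last 1000 exonic bases of Rhobtb2 and Rhobtb3 hold no bin middle, and the family share could not be run there. No paired analysis was possible because the labels give the hearts no shared replicate numbers. With 3 hearts a group and coverage that differs between the groups, small differences were not resolved at this depth.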
